A study of Homo sapiens with 2 samples.

Results

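The genes described here are 10 genes of antioxidant defence, chosen by name out of 19821 protein-coding genes: the peroxiredoxins PRDX1, PRDX2 and PRDX3, the glutathione peroxidases GPX1 and GPX4, catalase (CAT), the superoxide dismutase SOD1, thioredoxin (TXN), the transcription factor gene NFE2L2 and the reductase gene BLVRB. For each gene, called transcription start positions were taken from the gene body and 50 kb on each side. The calls came from PRO-cap, a nuclear run-on assay that labels nascent RNA with biotin and reads it from its 5' end. The assay was run on wild-type HUDEP-2 cells, which are human erythroid progenitors kept as an immortalised line, in 2 biological replicates of this 1 group, with no treatment and no second cell type. The deposited lists held 26395 calls, 13229 forward and 13166 reverse, and name no replicate, so that no spread between replicates can be given.

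Every call carried a score of 0, so that the depth behind it is unknown, and a site below the caller's threshold, which is not known, would not appear. The label of the cells was checked against marker genes. A start was called for all 10 erythroid markers examined, among them GATA1, KLF1 and ALAS2, and for 1 of 18 markers of megakaryocytes, granulocytes and monocytes, lymphoid cells and stroma, namely the integrin gene ITGA2B. PF4, MPO, CD14, CD3E and COL1A1 were among those without a call at their start.

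Cells that carry oxygen on haemoglobin form superoxide and peroxides continually. Superoxide dismutases turn superoxide into hydrogen peroxide, and catalase, peroxiredoxins and glutathione peroxidases reduce the peroxide. Thioredoxin and glutathione return electrons to the peroxiredoxins and glutathione peroxidases. NRF2, the protein of NFE2L2, activates many antioxidant genes when oxidants or electrophiles release it from KEAP1. Mature red cells have no nucleus, so the enzymes they carry are made by precursors of the kind that HUDEP-2 cells represent.

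The sequences around the called starts are shown for the 8 genes with a RefSeq promoter entry (GRCh38.p14, the build of the calls), since each call can be read against the bases it fell on. Each run holds 100 bases 5' to 3' on the gene's strand, 80 before the call and 20 from the called base onward. Capitals mark the base before the call, the called base and the next base (positions 80 to 82 of each run), and any match to 1 of 9 short motifs described further on.
PRDX2 (chr19:12801781-12801880, reverse strand): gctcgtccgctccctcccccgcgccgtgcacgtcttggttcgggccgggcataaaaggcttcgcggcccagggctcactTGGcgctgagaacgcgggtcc
PRDX3 (chr10:119178794-119178893, reverse strand): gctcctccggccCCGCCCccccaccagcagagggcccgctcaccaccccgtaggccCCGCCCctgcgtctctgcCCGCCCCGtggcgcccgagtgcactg
GPX1 (chr3:49358334-49358433, reverse strand): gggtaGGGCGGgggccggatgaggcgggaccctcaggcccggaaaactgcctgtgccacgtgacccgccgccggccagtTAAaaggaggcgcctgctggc
GPX4 (chr19:1103990-1104089, forward strand): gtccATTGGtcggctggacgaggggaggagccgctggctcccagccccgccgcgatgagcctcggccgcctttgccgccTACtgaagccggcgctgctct
CAT (chr11:34438853-34438952, forward strand): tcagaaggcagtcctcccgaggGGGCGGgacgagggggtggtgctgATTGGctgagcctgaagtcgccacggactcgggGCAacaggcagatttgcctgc
TXN (chr9:110256487-110256586, reverse strand): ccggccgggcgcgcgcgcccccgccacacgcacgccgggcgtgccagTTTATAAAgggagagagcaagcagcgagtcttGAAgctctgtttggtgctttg
NFE2L2 (chr2:177264704-177264803, reverse strand): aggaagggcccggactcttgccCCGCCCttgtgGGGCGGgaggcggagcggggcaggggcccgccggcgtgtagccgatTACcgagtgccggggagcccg
BLVRB (chr19:40465727-40465826, reverse strand): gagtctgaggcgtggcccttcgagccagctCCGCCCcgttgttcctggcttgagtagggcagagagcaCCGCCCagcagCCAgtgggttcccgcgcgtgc

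Of the 10 genes, 9 had a called start (90%). A called start is a call within 500 bp of the outer 5' end of the gene that ran into the gene. Among all protein-coding genes the share was 40.9%. The exception was PRDX1, whose 1 call lay deeper in the gene. At the other 9 genes the call nearest to the annotated start lay between 3 bp outside and 76 bp inside it, with a median of 0 bp, against a median of 4 bp inside for all protein-coding genes with a start. Of the 9, 8 lay within 10 bp of the annotated start, beside 46.4% of such genes, and 6 lay within 1 bp, beside 29.7%. Since the 10 genes were picked by name with earlier results of these data known, these shares are descriptions and were not tested.

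**Figure D1:**
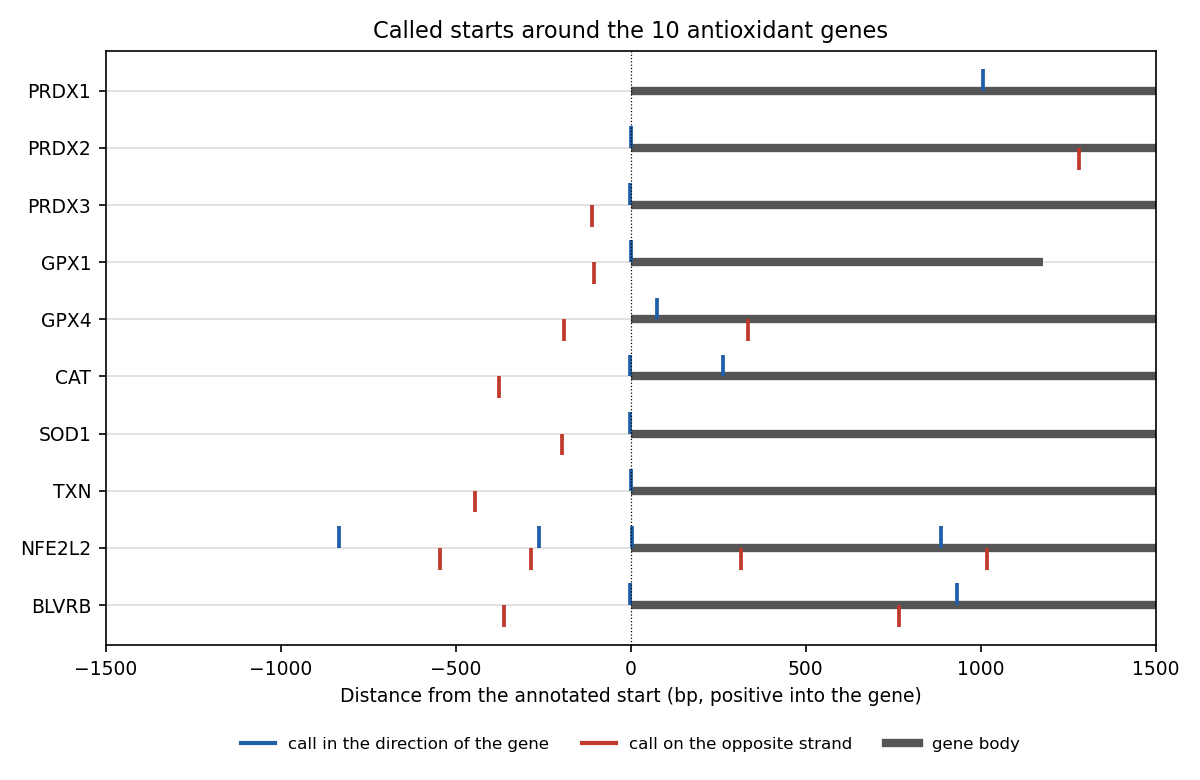
Called starts within 1500 bp of the annotated start of each gene, as distance in bp along the direction of the gene; upward blue marks are calls in the gene's direction, downward red marks calls on the opposite strand, and the grey bar is the gene body. A blue mark stands at or within 4 bp of 0 for 8 genes, at 76 bp for GPX4 and at 1005 bp for PRDX1, and NFE2L2 has 8 marks.

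The peroxiredoxins reduce hydrogen peroxide through a reactive cysteine and are recharged by thioredoxin, and PRDX2 is among the most abundant proteins of the red cell. PRDX2 (chr19:12796823-12801800, reverse strand) had its call at 12801800, on the annotated first base. PRDX3, the mitochondrial member (chr10:119167720-119178812, reverse strand), was called at 119178813, 1 base outside the gene, and held no call inside the gene body. PRDX1, a cytosolic member (chr1:45511051-45522890), had a single reverse call at 45521885, which is 1005 bp inside the upper end of the gene. PRDX1 is known to lie on the reverse strand, so that this call runs in the direction of the gene. It lay outside the 500 bp and also outside a 1000 bp window, and a RefSeq start of a shorter transcript was not used here for this gene.

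PRDX2 and PRDX3 differed in what lay on the opposite strand. The PRDX3 call had a divergent partner, an opposite-strand call upstream that runs away from the gene, at 119178922 and 109 bp away. PRDX2 had no opposite-strand call within 500 bp upstream. It had a forward call inside the gene instead, at 12800519, 1281 bp from its start and antisense to it. Of the 9 genes with a start, PRDX2 alone had no divergent partner within 500 bp.

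The glutathione peroxidases GPX1 and GPX4 use a selenocysteine. GPX1, the cytosolic enzyme (chr3:49357176-49358353, reverse strand), was called on its annotated first base at 49358353 and had a divergent partner at 49358457, 104 bp away, the shortest distance among the 10 genes for the call nearest to the annotated start. GPX4, which reduces lipid peroxides in membranes and guards against ferroptosis (chr19:1103994-1106779, forward strand), was called at 1104070, 76 bp inside the outer start. RefSeq gives 3 starts for GPX4, and this call lay 13 bp downstream of the one at 1104057. No call in its direction lay within 500 bp of the one at 1104650. The GPX4 call stood between opposite-strand calls on both sides, at 1103803, 267 bp upstream, and at 1104330, 260 bp downstream and running toward it. A convergent call within 300 bp of the start was found for GPX4 alone of the 9 genes, beside 8.11% of protein-coding genes with a start. In the printed sequence of GPX4 the letters ATG occur once before the call, with the A 26 bases upstream of the called base. GPX4 is known to give rise to cytosolic and mitochondrial forms of the enzyme from different start codons, and which form the called RNA encodes was not examined.

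CAT, which breaks down hydrogen peroxide without a reducing partner (chr11:34438934-34472060, forward strand), had 2 calls in its direction, at 34438933, 1 base outside the gene, and at 34439197, 263 bp inside. Its opposite-strand call lay at 34438556, 377 bp upstream of the first. SOD1, the cytosolic copper and zinc enzyme (chr21:31659693-31668931), was called at 31659690, 3 bp outside, with a partner at 31659497, 193 bp upstream, inside the noncoding gene SOD1-DT. TXN, which keeps peroxiredoxins reduced (chr9:110243810-110256507, reverse strand), was called at 110256506, 1 bp inside, with an opposite-strand call at 110256953, 447 bp upstream. CAT, SOD1 and TXN held no opposite-strand call in the gene body.

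NFE2L2 (chr2:177230303-177264727, reverse strand) had the densest start region of the 10 genes. Its calls in the gene's direction lay 833 and 261 bp outside the annotated start and 4 and 887 bp inside it, at 177265560, 177264988, 177264723 and 177263840. Its opposite-strand calls lay 544 and 286 bp outside and 316 and 1019 bp inside, at 177265271, 177265013, 177264411 and 177263708. The 8 calls within 1500 bp of the annotated start were more than 99.7% of protein-coding genes with a start had, whose median was 2. The other 8 genes with a start had 2 to 4 calls there, 4 of them at BLVRB. The call at 177264988 and the one at 177265013 formed a divergent pair 25 bp apart, while the call at the annotated start had the same partner at 290 bp. The call at 177263840 lay 291 bp downstream of the second RefSeq start of the gene, at 177264131.

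BLVRB reduces biliverdin and flavins with NADPH and is abundant in red cells (chr19:40447768-40465745, reverse strand). Its start call lay at 40465746, 1 base outside the gene, with an opposite-strand call at 40466106, 360 bp upstream. Inside the gene a reverse call at 40464814 and a forward call at 40464978 lay 931 and 767 bp from the annotated start, in the divergent arrangement. Both calls were nearer than 1000 bp to the end of the gene, so that the pair was not counted as distal.

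Divergent partners were about as frequent as elsewhere at the usual distance and more widely spaced at some of these genes. Within 300 bp upstream, 5 of 9 starts had a partner (PRDX3, GPX1, GPX4, SOD1 and NFE2L2), beside 50.8% of protein-coding genes with a start. Within 500 bp, 8 of 9 had one, beside 62.1%, since CAT, TXN and BLVRB had theirs at 377, 447 and 360 bp. Partners at 301 to 500 bp were the nearest ones for 11.4% of protein-coding genes with a start. The median distance of the 8 partners was 278.5 bp, against 174 bp for all protein-coding genes with a partner within 500 bp.

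More than 1 call in the gene's direction within 500 bp of the annotated start was found for CAT and NFE2L2, 2 of 9, beside 14% of protein-coding genes with a start. In the deposited lists the smallest gap between calls of the same strand was 251 bp, so that closer starts cannot appear as separate calls. An opposite-strand call inside the gene was found for PRDX2, GPX4, NFE2L2 and BLVRB, 4 of 9, beside 35.7%. Read against these shares, the counts for partners within 300 bp and for opposite-strand calls were near those of protein-coding genes at large.

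**Figure D2:**
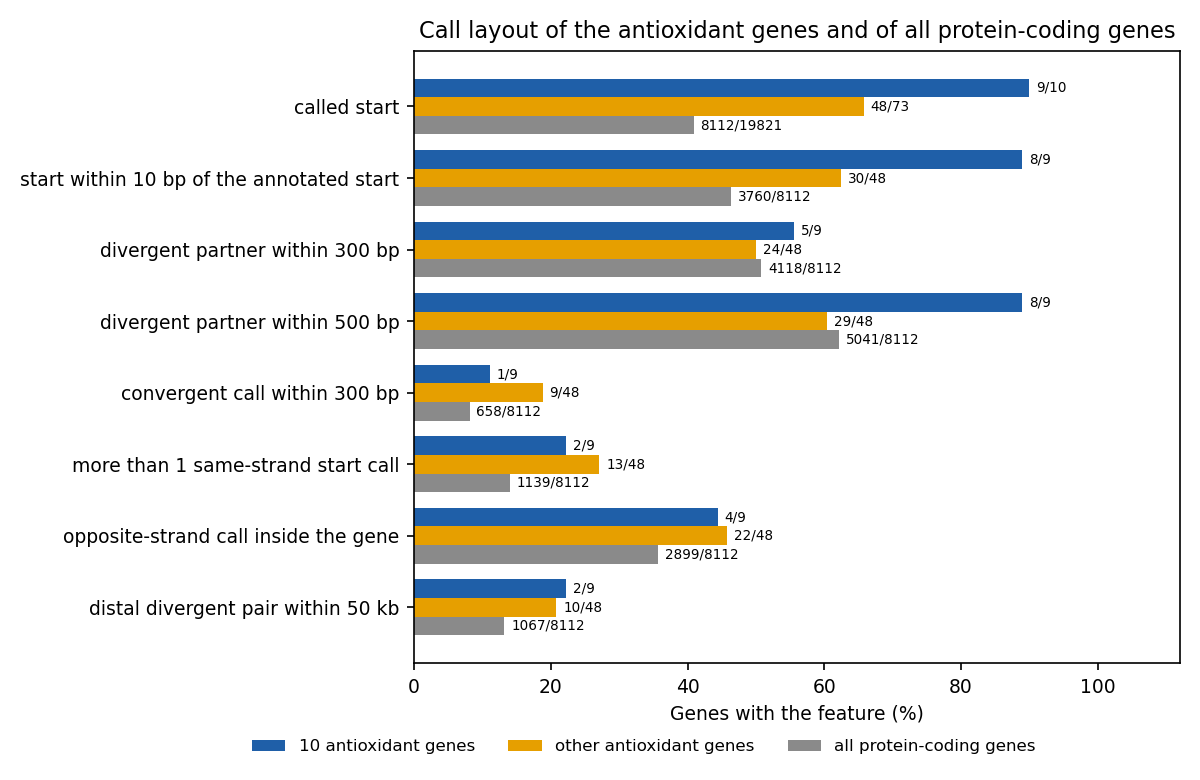
Share of genes (%) with each feature of call layout among the 10 antioxidant genes (blue), the other antioxidant genes (orange) and all protein-coding genes (grey), with counts at the bars; below the top row the shares are of genes with a called start. The blue bars reach 9 of 10 for a called start and 8 of 9 for a start within 10 bp of the annotated one, and 5 of 9 for a partner within 300 bp.

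The bases at the calls were read from the sequences printed above. Initiation by RNA polymerase II is known to favour a pyrimidine followed by a purine, with the purine as first base. At PRDX2, GPX1, GPX4 and NFE2L2 the called base was a purine after a pyrimidine (TG at PRDX2 and TA at the other 3). At PRDX3, CAT and BLVRB the called base was a C and the purine came next (CG at PRDX3, CA at CAT and BLVRB). TXN had GA at the called base and AA from it onward, and so showed the step at neither place. Over 5636 protein-coding genes with a call in a RefSeq promoter window, 30.5% had the step at the called base and 47.1% from the called base to the next, against 22.4% of all positions in these windows. The letters CA fell on the base before the call and the call in 1.21% and on the call and the next base in 36.7%, against 5.35% of all positions. The second share was 36.7% for reverse calls and 36.7% for forward calls. CA ending on the call was thus rarer than at all positions, and CA starting on the call was more frequent. Deposited positions therefore often lie 1 base before the purine, and whether the calling shifts them was not tested. Distances of 0 or 1 bp from an annotated start are to be read with this offset in mind. The same holds for the steps read at single genes.

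A total of 9 motifs were searched on both strands in windows of 300 bases, 250 before and 50 after the RefSeq start nearest to the call. GGGCGG, the GC box bound by SP factors, was found in the windows of all 8 genes. Matches ran from 1 in PRDX2, GPX1, GPX4 and CAT to 6 in BLVRB. Of 22132 promoter windows of protein-coding genes, 56.3% held GGGCGG. The shares of promoter windows given here and below include windows without a call, whereas all 8 genes had a called start. TATAAA, the core of the TATA box, was found at TXN alone, 31 to 26 bases before the call, and in 9.46% of promoter windows. The letters TTTATAAA printed in capitals there match it on both strands, with an overlap. Near matches, such as the letters cataaaa in the printed run of PRDX2, were not counted. CCAAT was found in CAT, with 5 matches of which 1 lay 34 to 30 bases before the call, and in GPX4, with 3, against 34.6% of promoter windows. CCGGAAG, a motif of ETS factors, was found at GPX1 alone, outside the printed run, and in 12.8% of promoter windows.

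The remaining motifs had no match in any of the 8 windows. These were AGATAA, a form of the GATA factor motif (7.88% of promoter windows), CCACACCC, a form of the motif of KLF1 (3.42%), TGACNNNGC, the core of the antioxidant response element that NRF2 binds (13.8%), TGANTCA, a form of the AP-1 motif that NFE2 can bind (6.15%), and the motif of NRF1 (1.5%). A match or its lack describes the letters of these windows and says nothing on binding.

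Calls in the surroundings differed widely between the genes. In all, 72 calls lay in the 10 gene bodies and 50 kb on each side, 35 forward and 37 reverse, and no call was shared by any pair of these windows. Of these, 25 lay at the start of an annotated gene, 22 elsewhere inside a gene and 25 outside genes. BLVRB had most, with 15, PRDX2 had 13 and NFE2L2 had 12. PRDX1, PRDX3, GPX1 and GPX4 had 6 each, CAT and TXN 3 each and SOD1 2. The median was 6, against 5 for all protein-coding genes with a start (quartiles 3 and 8). The counts of BLVRB and PRDX2 were above those of 94.2% and 91.1% of these genes, and that of SOD1 was above 5.97%. The window of PRDX2 touched 8 other protein-coding genes, and those of PRDX1, GPX4 and BLVRB 4 each. The windows of PRDX3 and GPX1 touched 3 each, that of TXN 2, and those of CAT, SOD1 and NFE2L2 1 each. Whether gene length or the number of neighbouring genes relates to the number of calls was not tested.

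Of the 72 calls, 15 were distal, which here means farther than 1000 bp from both ends of every gene. A distal call can thus lie inside a gene, and 12 of the 15 lay inside a protein-coding gene. PRDX2 had 7 of the 15, BLVRB 3, GPX4 2, and PRDX1, TXN and NFE2L2 1 each. Those of PRDX2 include the antisense call 1281 bp inside PRDX2 itself. The 1 at PRDX1 is the call 1005 bp inside the gene and the 1 at NFE2L2 lay 1019 bp inside, both just past the limit. PRDX3, GPX1, CAT and SOD1 had none.

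Distal divergent pairs, an arrangement known from active enhancers, were found near PRDX2 and BLVRB, 2 of the 9 genes with a start, beside 13.2% of protein-coding genes with a start that had a pair in the gene or within 50 kb of it. Near PRDX2, the pairs at 12788644 and 12788809 (165 bp apart) and at 12789852 and 12790150 (298 bp apart) lay inside HOOK2, 8.0 and 6.7 kb from the PRDX2 gene body on the side of its 3' end. Between them and PRDX2 lay the start of JUNB, an AP-1 transcription factor gene, called on its annotated first base at 12791486 with a partner at 142 bp, and a single forward call at 12794044. On the other side the nearest called start was that of RNASEH2A, a subunit of ribonuclease H2, at 12806607. The pairs therefore lay nearer to JUNB than to PRDX2, and which gene they act on, if any, was not tested. They lay 1452 and 1336 bp from the nearest gene end, so that neither counts as distal with a limit of 2000 bp.

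Near BLVRB, the pair at 40433926 and 40434127 (201 bp apart) lay outside genes, 13.6 kb from the gene body on the side of its 3' end and 31.6 kb from its start. It was 6717 bp or more from every gene end. SERTAD3, the nearest gene with a called start on that side, lay between the pair and BLVRB and held calls at 40443110 and 40443435, of which the first was distal and the other was not. All 11 calls around BLVRB that lay farther than 1500 bp from its start were on this side, toward SERTAD3 and SERTAD1, and the other 4 lay at its own start.

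**Figure D3:**
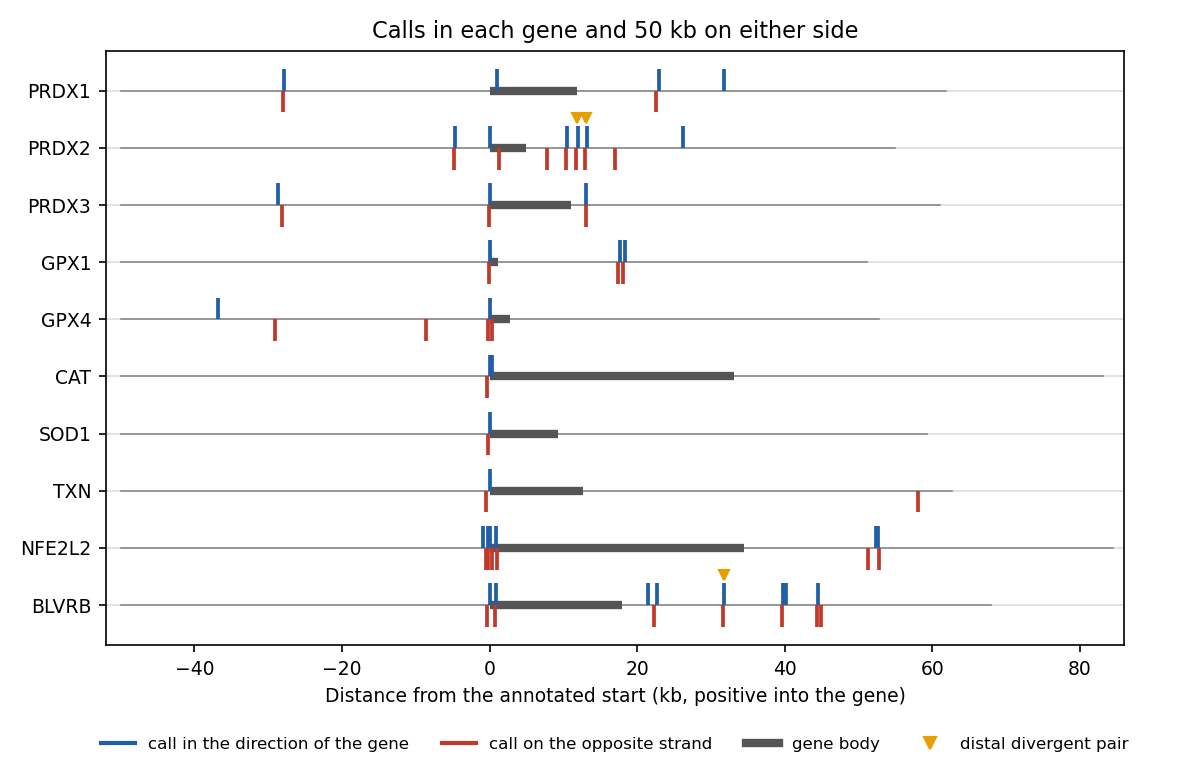
Calls in each gene body (dark bar) and 50 kb on each side (thin line), in kb from the annotated start along the direction of the gene; blue marks point in the gene's direction, red marks are on the opposite strand, and triangles mark distal divergent pairs. PRDX2 has 2 triangles and BLVRB 1, and for CAT and SOD1 the only marks are those near 0.

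Farther than 1500 bp from their own starts, GPX1 and PRDX3 had 4 calls each, GPX4 had 3 and SOD1 had 0. Of these 11 calls, 3 lay at the start of a neighbouring gene, 6 lay outside genes and 2 lay inside ARHGAP45, both of them the distal calls near GPX4. USP4, 17.1 kb from GPX1, was called 1 base outside its start with a partner at 169 bp, and a further pair at 49340723 and 49340906 lay 670 and 853 bp from the same gene end. POLR2E, a shared subunit of the RNA polymerases 8.6 kb from GPX4, was called at 1095374, and SFXN4, 2.0 kb from PRDX3, at 119165685. SCAF4, the nearest neighbour of SOD1 with a called start, lay 2.1 kb from it as a gene body. The nearest neighbours of TXN with a called start were TMEM245 and ECPAS, 1124 and 1104 kb away.

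The wider pathway was described with 73 other antioxidant genes in 10 lists by role, none of them among the 10 genes. Of these, 48 had a called start (65.8%), against 40.9% of all protein-coding genes. The lists were chosen with earlier results of these data known, so that this difference was not tested. Within 10 bp of the annotated start lay 30 of the 48, a divergent partner within 300 bp was found for 24 and a distal pair within 50 kb for 10. Counting calls at any RefSeq start of a gene in place of the outer 5' end, 55 of 73 (75.3%) had a start, against 44.2% of protein-coding genes. This added 8 genes and left out 1, IDH2, whose call at the outer 5' end is not near a start in the promoter entries.

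All 7 genes of the list of peroxiredoxins and their reactivation had a called start. PRDX1, PRDX2 and PRDX3 are not in this list, and PRDX1 had no called start. PRDX4, the member of the endoplasmic reticulum, was called 30 bp inside its start, PRDX5 121 bp inside, and PRDX6 25 bp outside. SESN1, a sestrin, had 3 calls in its direction. Of the glutathione peroxidases other than GPX1 and GPX4, none of 6 was called. GPX2, GPX3, GPX5 and GPX6 and the remaining 2 held no call within the gene body either, so that among the 8 genes of the family listed here GPX1 and GPX4 alone had a call. Of the superoxide dismutase list, SOD2, the mitochondrial enzyme, and CCS, the copper chaperone of SOD1, were called and SOD3, the extracellular enzyme, was not. SOD2 held 10 calls in its gene body.

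Thioredoxin and glutaredoxin genes had 7 of 9 called, with GLRX, GLRX3, GLRX5 and TXN2 among them. TXNRD1, the reductase that recharges thioredoxin, and GLRX2 had no call at the outer 5' end but held 4 and 2 calls in the gene, and both had a call at another RefSeq start. Glutathione synthesis and recycling had 6 of 7, with GCLC and GCLM, both subunits of the rate-limiting enzyme, called 3 bp inside and 1 bp outside their starts. Genes that supply NADPH had 6 of 8, with IDH1, IDH2 and PGD among those called, each with a divergent partner, and ME1 and NNT without a call at the outer 5' end. NNT, which makes NADPH in mitochondria, held 5 calls in the gene and had a call at another RefSeq start, and ME1 had no call at any RefSeq start. Glutathione transferases had 3 of 9 (GSTK1, MGST2 and MGST3), and GSTM1, GSTM2, GSTM3 and GSTO1 were among those without, although GSTO1 held 3 calls in the gene and had a call at another RefSeq start. GSTM3 held 1 call in the gene, at no RefSeq start. GSTM genes are close copies of each other, so that the lack of a called start there is uncertain.

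Among partners and regulators of NRF2, 8 of 12 had a called start. KEAP1, the inhibitor that holds NRF2 for degradation, was called 27 bp inside its start with a partner at 91 bp, and BACH1, a repressor of the same target genes that haem inactivates, 3 bp inside with a partner at 189 bp. CUL3, the ubiquitin ligase scaffold that works with KEAP1, and MAFF, a small MAF partner, were called too. BACH2, MAFG, NFE2L3 and SQSTM1 were not, although MAFG and SQSTM1 had a call at another RefSeq start. Of the haem and quinone reductases and related enzymes, AIFM2, CYB5R3, HMOX1 and NQO2 were called (4 of 7). BLVRA, HMOX2 and NQO1 were not, although BLVRA had a call at another RefSeq start. NQO1 held 1 call in the gene, at no RefSeq start. HMOX1, the inducible haem oxygenase whose product biliverdin BLVRA reduces, had its call 1 base outside the gene. All 5 genes of selenoprotein synthesis (EEFSEC, PSTK, SECISBP2, SEPHS2 and SEPSECS), on which GPX1 and GPX4 depend, had a called start.

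**Figure D4:**
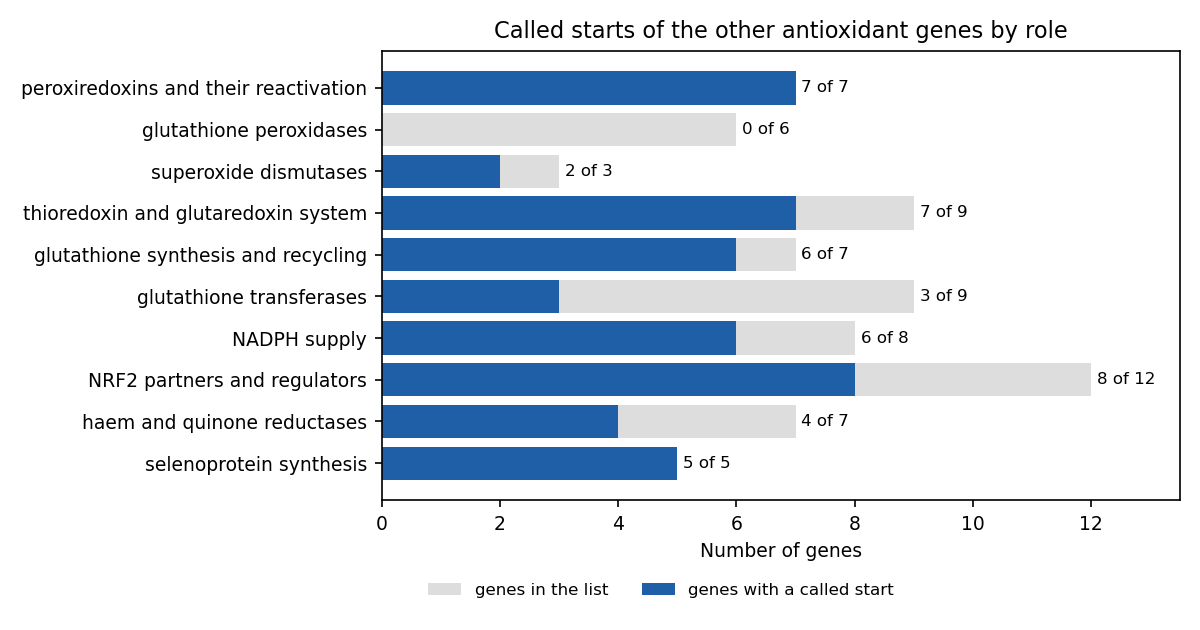
Number of genes with a called start (blue) among the genes of each role list (grey) for the 73 other antioxidant genes. The bars are full for peroxiredoxins and their reactivation (7 of 7) and for selenoprotein synthesis (5 of 5). The bar is empty for the other glutathione peroxidases (0 of 6).

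Likeness was measured by 3 answers per gene, namely a called start, a divergent partner within 300 bp and a distal pair within 50 kb. PRDX3, GPX1, GPX4, SOD1 and NFE2L2 had a start and a partner but no distal pair, as did 20 of the 73 other antioxidant genes, among them GGCT and GLRX3, and 18.1% of protein-coding genes. PRDX2 and BLVRB had a start and a distal pair but no partner. This combination was found in 2.73% of protein-coding genes and in 6 of the 73, with GCLC, NFE2, NQO2 and SESN1 the first of these by alphabet. CAT and TXN had a start alone, as did 18 of the 73, such as AIFM2, CCS, CUL3 and CYB5R3, and 17.4% of protein-coding genes. PRDX1 had none of the 3, like 24 of the 73 and 54.6% of protein-coding genes. Its call 1005 bp inside the gene did not count as a start, and it had no promoter entry to give other RefSeq starts.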

How the data were processed

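PRO-cap libraries of wild-type HUDEP-2 nuclei were made in 2 biological replicates, per the labels. Per the submitters' processing notes, the build was hg38 and the tools included BWA 0.7.16a, SAMtools 1.17, Picard and deepTools 3.5.4. For the caller's settings, its threshold and any pooling of replicates, the entry is: not given in the sources used here. In the files, the position columns that the authors deposited hold other values than measurements, namely 1-base coordinates, printed 1-based. Every deposited score is 0 (26395 calls), so depth and replicate spread are unknown.

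Of the calls, 26332 on chromosomes 1 to 22 and X were used. Genes came from a RefSeq table of GRCh38.p14 (679 entries on other scaffolds removed), which gives outer ends. Strand, known for 15813 of 19821 protein-coding genes and 8 of the 10 members, and sequence came from RefSeq promoter entries. Where strand was not given, as for PRDX1 and SOD1, inward calls at either end counted. The members and lists were chosen with earlier results of these data known, and nothing was tested. The named genes were the members, the first 4 by alphabet of each list with and without a start (all where 5 or fewer), neighbours and hosts of pairs. Some items under this rule are not reported here. Counts were made with Python 3.11.15, numpy 2.4.6 and pandas 2.3.3, and the steps were tested on simulated data. No per-sample column was left unused. Alternatives are given in the closing section.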

Additional observations from a re-analysis of the deposited data

How the results depend on the processing

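Of 22 alternative settings over 6 results, 16 left the count within 1.5 times its value or the median distance at 0 bp. The 9 genes with a called start stayed at 9 with windows of 200 and 1000 bp. The count was also 9 with inward calls at either gene end and around every RefSeq start. These last settings could not change PRDX1 or SOD1, which lacked a strand and a promoter entry, so that they do not probe the missing start of PRDX1. The count reached 10 when any call along the gene strand in the gene was counted, since PRDX1 then joined. The 48 other antioxidant genes with a start ranged from 47 (200 bp) to 55 (every RefSeq start). Divergent partners were found for 2 genes within 150 bp and 8 within 500 bp, against 5 within 300 bp. Genes with a distal pair within 50 kb numbered 2, and 1 with a distal limit of 2000 bp, where PRDX2 dropped out and BLVRB stayed. They numbered 0 with a spacing of at most 150 bp and 4 with a flank of 100 kb. Calls near the genes numbered 128 with a flank of 100 kb and 58 with 20 kb, against 72, as a wider window holds more. The setting around every RefSeq start was chosen after seeing the data. Leaving out a replicate could not be done, since the calls name none. No paired analysis was possible because the series has 1 group. Without depth, a gene without a call may be transcribed below the threshold.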
